A study of Mus musculus with 30 samples.

Results

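The 10 transcripts described here encode enzymes and accessory proteins of de novo lipogenesis in mouse liver, namely Pklr, Me1, Acly, Acaca, Acacb, Fasn, Elovl6, Scd1, Thrsp and Pnpla3. They were named from the known pathway, though with earlier results of these data known. The shares over all probe sets set beside them below are therefore a description. Each transcript was read from the array at the probe set that carries its symbol alone. Every member had 1 such probe set, so that 10 of 22180 genes with a probe set of a single symbol are reported. Liver RNA of 30 male C57Bl/6NCr offspring was measured with 1 Affymetrix mouse gene array per animal. The question was how undernourishment in utero (UN) alters the liver, first on chow and then on high-fat food (HFD). Dams of the UN offspring received 40% fewer calories in late pregnancy, whereas those of the normally nourished (NN) offspring ate freely. The pups of both kinds were brought to equal litter sizes and nursed by NN dams, and they ate regular chow until 9 weeks.

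Cohort 1 was sampled at 9 weeks on chow (3 NN-9wk and 3 UN-9wk animals), and cohort 2 at 17 weeks after 8 weeks of HFD (4 NN-17wk and 4 UN-17wk animals). Cohort 3 was sampled at 22 weeks after 13 weeks of HFD. For the last 5 weeks its animals received either vehicle (4 NN-Veh and 4 UN-Veh) or TUDCA, or tauroursodeoxycholic acid, a taurine-conjugated bile acid used as a chemical chaperone, at 0.5 g/kg/day by gavage (4 NN-TU and 4 UN-TU). All animals of cohorts 2 and 3 were on HFD, so that these cohorts hold no chow control, and age, diet and cohort cannot be told apart between cohorts. Litter, feeding state and hour of sampling were not given in the sources used here.

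De novo lipogenesis turns surplus glucose into fatty acids. Glycolysis delivers pyruvate to the mitochondria, citrate carries the carbon back to the cytosol, and acetyl-CoA, malonyl-CoA and then palmitate are made in sequence before the chain is lengthened and desaturated for storage as triglyceride. In liver the pathway is switched on after a meal by insulin through the transcription factor SREBP-1c, encoded by Srebf1, and by glucose through ChREBP, encoded by Mlxipl, and it is high in fatty liver.

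Values are normalized log2 signals as deposited, and a difference of 1 on this scale is a linear fold change of 2. Differences were fitted with limma over 25341 probe sets named by a gene, and adjusted p denotes the Benjamini-Hochberg value over all of them. Signals of different genes come from different probes and were not set against each other. Scd1 lay close to the upper end of the scale, with signals of 9.90 to 12.26 where the brightest probe sets of the arrays reached 12.49 to 12.89, so that a rise from its usual level had little room on the scale. Pnpla3 lay close to the array medians of 4.11 to 4.25, with signals of 3.80 to 5.42. The hepatocyte marker Alb, albumin, had signals of 10.83 to 12.77 in the 30 livers. Adipoq, an adipocyte marker, had 3.04 to 3.70, below the median of every array. Of the other adipocyte markers measured, Retn had 4.36 to 5.28, above the median of every array. Plin1 had 3.99 to 4.47, Lipe 3.79 to 5.19 and Lep 2.65 to 4.28. UN-17wk replicate 14 stood apart from the other arrays, with a median correlation of 0.883 against 0.973 for UN-17wk replicate 13 and 0.983 to 0.991 for the rest, and with an SD over probe sets of 1.48 against 1.90 to 2.01. Its hepatocyte markers were low as well, with a summed log2 signal of 12.12 against at least 14.10 in every animal of 22 weeks. Each comparison with the 17-week groups is therefore given with and without it. In bulk liver, fewer cells of a type and less RNA per cell cannot be told apart.

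The genes lie on 7 chromosomes in the mouse reference annotation (GRCm38.p6), with Acaca, Acly and Fasn on chromosome 11 and Pklr and Elovl6 on chromosome 3. RefSeq promoter windows of that build, from 250 bases before to 50 after an annotated start, were matched for 9 of the 10 genes in 11 windows. Scd1 had none. The only windows of Acaca (from base 84195188) and Acacb (from 114165268) lie inside their genes, which begin at 84129635 and 114146321. The only Fasn window, on the minus strand, ends at 120824797, inside its gene, whose outer start is at 120825166. Promoters at the outer starts of these genes were therefore not searched. The Me1 window that ends at 86687527 and the second Pklr window, from 89136373, lie inside their genes as well. Binding motifs of lipogenic regulators were searched on both strands. CACGTG, the E-box shared by several helix-loop-helix factors, was found in 0 of the 11 windows and in 7.15% of all 32851 windows of the table. CACCCCAC, the letters of a classical sterol response element, was likewise found in 0 windows, against 2.87% of all. CCAAT, the box bound by NF-Y, was found in 7 of the 11 windows, each of a different member, against 37.4% of all windows. The CCAAT matches of Pklr, Me1, Acacb and Fasn lie in their windows inside the genes, and that of Acly begins at base 38 after its start. TATAAA was found in 2 of the 11 windows, those inside Pklr and Acacb, against 13.6% of all. A further search, added after these results were seen, looked for the paired parts of a carbohydrate response element, CACGNG and CNCGTG with 5 bases between them. That pair was found in 1 member window, of Pklr, and in 15 windows of the whole table, or 0.0457%. A match is a string of letters and no measured site, and these arrays carry no binding data.

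The 250 bases before 3 starts are printed 5′ to 3′ on the strand of the gene, since Pklr, Fasn and Thrsp carry much of the description below. Capitals mark the paired parts with the bases between them and every CCAAT (also read as ATTGG) and TATAAA. The Pklr window is that of the second RefSeq start, the start used in liver, at chr3:89136373-89136622 on the plus strand. Its paired parts begin at base -170 from the start, its CCAAT box at -117 and its TATAAA at -31.
Pklr: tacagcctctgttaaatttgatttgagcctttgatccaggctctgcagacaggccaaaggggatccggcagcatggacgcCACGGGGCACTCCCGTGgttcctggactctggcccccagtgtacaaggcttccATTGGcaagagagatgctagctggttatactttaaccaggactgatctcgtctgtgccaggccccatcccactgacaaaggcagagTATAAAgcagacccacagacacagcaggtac
The Fasn window, at chr11:120824548-120824797 on the minus strand, is that of a start inside the gene. It holds CCAAT 3 times, from bases -90, -62 and -59, of which the last pair overlap on opposite strands.
Fasn: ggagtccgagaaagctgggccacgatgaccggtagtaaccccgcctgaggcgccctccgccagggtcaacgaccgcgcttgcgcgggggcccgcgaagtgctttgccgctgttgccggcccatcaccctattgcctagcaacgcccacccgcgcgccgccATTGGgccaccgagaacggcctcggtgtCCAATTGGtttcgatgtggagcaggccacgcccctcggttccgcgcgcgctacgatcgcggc
The Thrsp window, at chr7:97417551-97417800 on the minus strand, holds CCAAT from bases -79 and -52.
Thrsp: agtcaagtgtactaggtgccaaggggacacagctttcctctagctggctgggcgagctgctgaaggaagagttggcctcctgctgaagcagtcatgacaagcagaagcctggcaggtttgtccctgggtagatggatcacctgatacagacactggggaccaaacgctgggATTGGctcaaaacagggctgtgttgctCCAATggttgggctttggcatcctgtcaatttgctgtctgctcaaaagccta

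The question addressed first was whether the lipogenic transcripts differed between UN and NN offspring at 22 weeks, after 13 weeks of HFD with vehicle. All 10 members were higher in UN-Veh than in NN-Veh, by a median log2 difference of 0.86, against 0.02 over all tested probe sets. The largest differences were those of Fasn, Elovl6, Me1 and Acacb, and the smallest that of Scd1. By limma 0 of 10 members passed an adjusted p under 0.05, a threshold that 0.418% of all tested probe sets passed, and the methods' ANOVA also gave 0. An unadjusted p under 0.05 with a higher value in UN-Veh was found for 7 members, against 5.89% of the tested probe sets. The thresholds of the study, a linear fold of 2 and an unadjusted p under 0.05 (here of limma), were passed upward by 2 members, Fasn and Elovl6, against 0.103%. For 6 members every UN-Veh animal lay above every NN-Veh animal, which was the case for 4.72% of the tested probe sets.

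**Figure D1:**
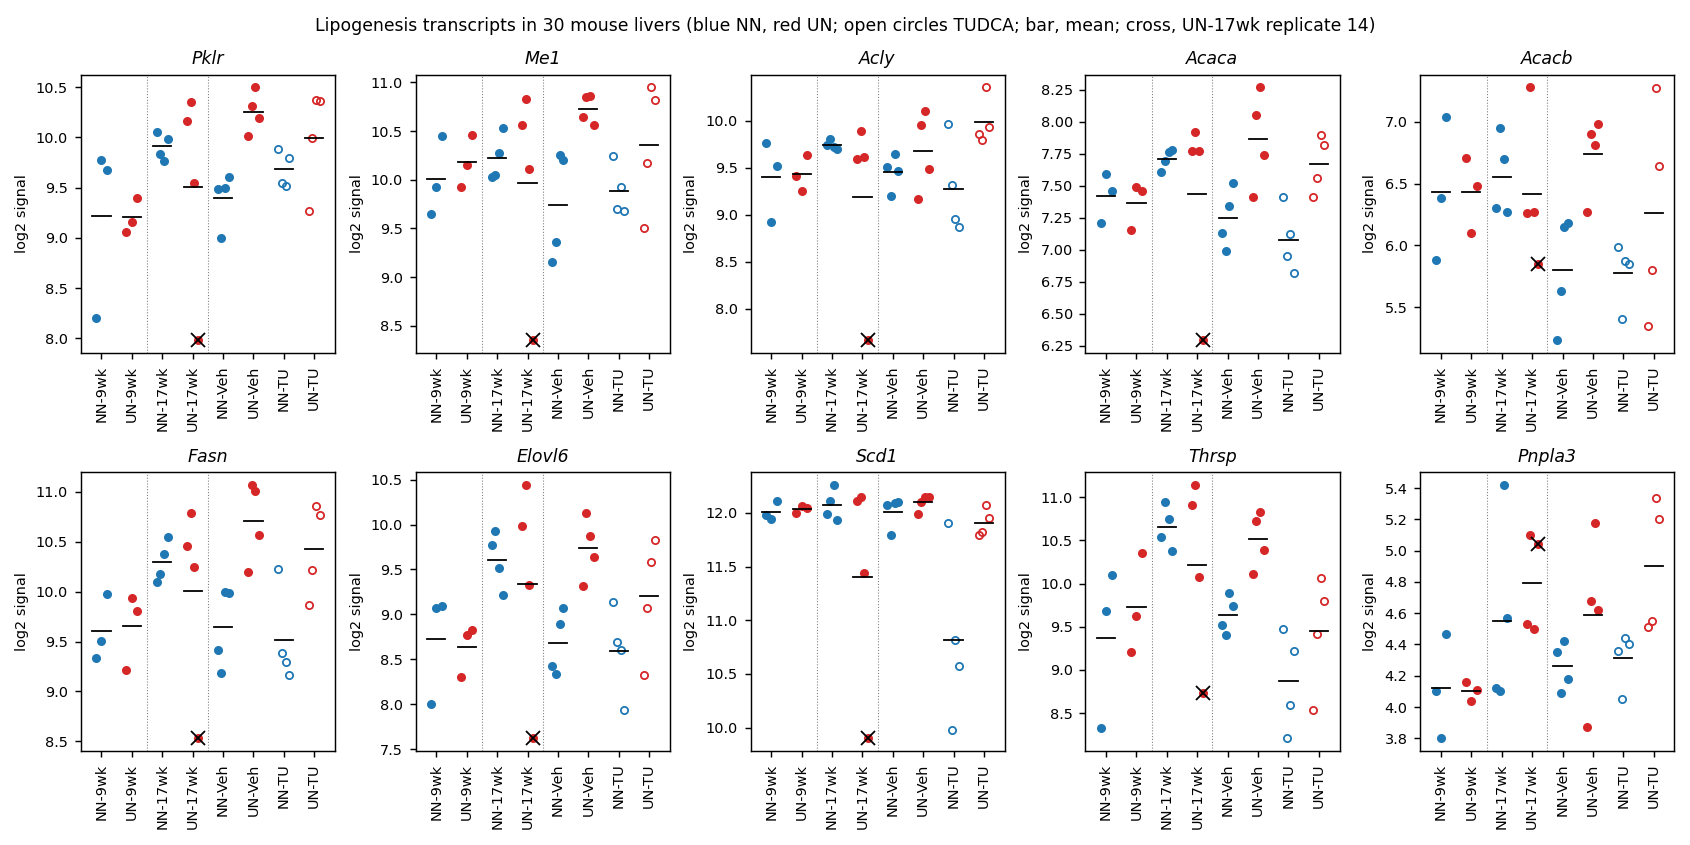
Log2 signal (y axis, own scale in each panel) of the 10 lipogenesis transcripts in each of 30 livers, by group (x axis), with NN in blue, UN in red, TUDCA groups as open circles, bars at group means and a cross on UN-17wk replicate 14. In UN-Veh all 10 means lie above those of NN-Veh, and replicate 14 is the lowest of the 30 arrays for Pklr (7.98), Me1 (8.35), Acly (7.66), Acaca (6.29), Fasn (8.53), Elovl6 (7.62) and Scd1 (9.90). The SD over probe sets of replicate 14 was 1.48, against 1.90 to 2.01 in the other arrays.

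Of the enzymes that supply carbon and reducing power, Pklr encodes liver pyruvate kinase, which carries out the last step of glycolysis. Its signals were 9.49, 9.00, 9.50 and 9.61 in NN-Veh and 10.01, 10.31, 10.50 and 10.19 in UN-Veh. Every UN-Veh animal was above every NN-Veh animal, with little spread in either group (SD 0.20 in UN-Veh and 0.27 in NN-Veh, 4 animals each). The difference was 0.85 (SE 0.19, limma adjusted p = 0.0502), or 1.81 times on the linear scale. Me1 encodes the cytosolic malic enzyme, which yields pyruvate and the NADPH that fatty acid synthesis consumes. Its signals were 9.16, 9.36, 10.25 and 10.20 in NN-Veh and 10.64, 10.85, 10.86 and 10.56 in UN-Veh. The UN-Veh animals lay close together above an NN-Veh group that was spread over more than 1 log2 unit. The difference was 0.99 (SE 0.26, adjusted p = 0.112), or 1.98 times. Acly encodes ATP citrate lyase, which splits citrate into acetyl-CoA in the cytosol. It had 9.51, 9.20, 9.65 and 9.47 in NN-Veh and 9.17, 9.96, 10.11 and 9.49 in UN-Veh. The groups overlapped widely, the lowest animal of both being UN-Veh replicate 23, and the difference was 0.23 (95% interval -0.22 to 0.67).

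Acetyl-CoA carboxylase makes malonyl-CoA, the building block of the chain. Acaca encodes the cytosolic form that feeds synthesis, and Acacb the form at the outer mitochondrial membrane, whose malonyl-CoA restrains the entry of fatty acids for oxidation. Acaca signals were 7.13, 6.99, 7.34 and 7.52 in NN-Veh and 7.41, 8.05, 8.27 and 7.74 in UN-Veh. Of the UN-Veh animals 3 were above all NN-Veh animals and replicate 23 fell within their range. The difference was 0.62 (SE 0.17, adjusted p = 0.118). Acacb signals were 5.23, 5.63, 6.15 and 6.18 in NN-Veh and 6.27, 6.90, 6.81 and 6.98 in UN-Veh. The groups did not overlap, although UN-Veh replicate 23 came near the highest NN-Veh animal. The difference was 0.95 (SE 0.30, adjusted p = 0.219).

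Of the enzymes that build and modify the chain, Fasn encodes fatty acid synthase, which assembles palmitate. Its signals were 9.42, 9.18, 10 and 9.99 in NN-Veh and 10.20, 11.07, 11.01 and 10.57 in UN-Veh. The groups did not overlap, and replicate 23 was again the lowest of UN-Veh. The difference was 1.06 (SE 0.25, adjusted p = 0.0666), or 2.09 times. Elovl6 encodes the elongase that extends palmitate to stearate. It had 8.43, 8.34, 8.89 and 9.07 in NN-Veh and 9.31, 10.13, 9.87 and 9.64 in UN-Veh, without overlap. The difference was 1.05 (SE 0.27, adjusted p = 0.100), or 2.08 times. Scd1 encodes the stearoyl-CoA desaturase that makes oleate. Its signals were 12.07, 11.79, 12.09 and 12.10 in NN-Veh and 11.99, 12.10, 12.15 and 12.15 in UN-Veh. These groups overlapped near the upper end of the scale, and the difference was 0.09 (95% interval -0.41 to 0.58), which leaves differences of up to 0.58 within its interval.

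Of the accessory proteins, Thrsp encodes the thyroid hormone responsive protein Spot 14, which promotes lipogenesis in liver. Its signals were 9.52, 9.41, 9.89 and 9.74 in NN-Veh and 10.11, 10.72, 10.83 and 10.39 in UN-Veh. Every UN-Veh animal was above every NN-Veh animal. The difference was 0.87 (SE 0.27, adjusted p = 0.217). Pnpla3 encodes a lipid droplet protein with a patatin-like domain whose transcript is raised by feeding. It had 4.35, 4.09, 4.42 and 4.18 in NN-Veh and 3.87, 4.68, 5.18 and 4.62 in UN-Veh. In UN-Veh 3 animals were above all NN-Veh animals and replicate 23 was below them all, and the difference was 0.33 (95% interval -0.12 to 0.77).

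UN-Veh replicate 23 thus had the lowest UN-Veh signal for all 10 members apart from Me1, whose lowest was 10.56 in replicate 26. Without replicate 23, 2 members rose at an adjusted p under 0.05, Acaca (0.77, adjusted p = 0.0456) and Fasn (1.23, adjusted p = 0.05 after rounding), and with the groups compared alone in the fit 4 did, Pklr, Fasn, Elovl6 and Thrsp. The median over the members was between 0.76 and 0.97 over all alternatives, leaving out each array in turn included.

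**Figure D2:**
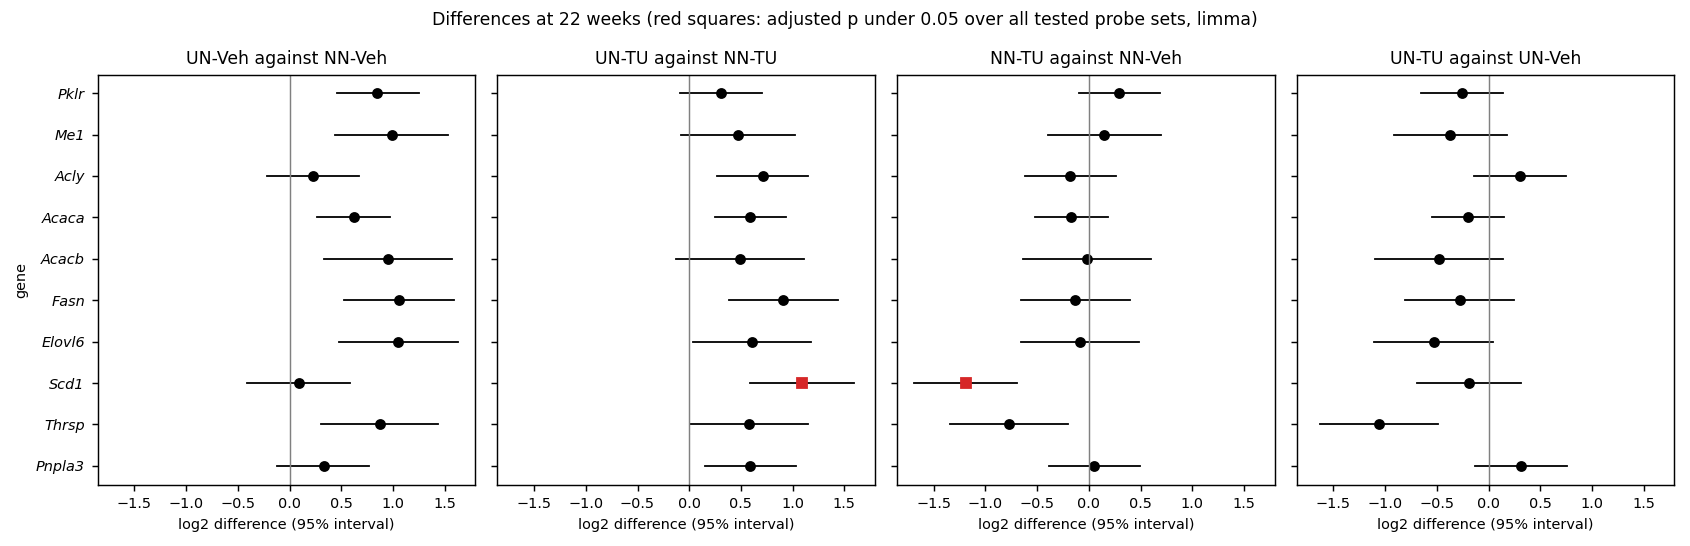
Log2 differences (x axis) of the 10 members (y axis) in 4 comparisons at 22 weeks, with points at the limma estimate, lines over the 95% interval and red squares where the adjusted p over all tested probe sets was under 0.05. All 10 estimates are above 0 in both comparisons of UN with NN, and the 2 red squares are those of Scd1, at 1.09 in UN-TU against NN-TU and -1.19 in NN-TU against NN-Veh.

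The transcripts of the main regulators, Srebf1 and Mlxipl, lay close together in the vehicle groups. Of 10 measured genes of transcriptional control, 0 passed an adjusted p under 0.05 in UN-Veh against NN-Veh (limma), and 1 had an unadjusted p under 0.05. Srebf1 had 8.94, 8.47, 8.58 and 8.60 in NN-Veh and 8.62, 8.63, 8.80 and 8.70 in UN-Veh. The groups overlapped, and the difference was 0.04 (SE 0.15). Mlxipl differed by 0.04 (SE 0.10), and Nr1h3, which encodes the oxysterol receptor LXR alpha, by -0.01 (SE 0.08). The 1 gene with an unadjusted p under 0.05 was Insig2, which encodes an anchor that holds SREBP in the endoplasmic reticulum. It was higher in UN-Veh by 0.57 (SE 0.17, adjusted p = 0.183). The array reads transcript levels, so that processing of SREBP-1c and activity of ChREBP were not measured.

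Of 5 measured genes of glucose entry and carbohydrate response, 3 were higher at an unadjusted p under 0.05 and 0 at an adjusted p under 0.05, with a median of 0.33. They were Slc2a2, the glucose transporter GLUT2 of hepatocytes (0.63, SE 0.17, adjusted p = 0.110), Txnip, a glucose-induced inhibitor of thioredoxin (0.48, SE 0.16, adjusted p = 0.243), and Khk, fructokinase (0.33, SE 0.13, adjusted p = 0.377). Gckr, the regulator of glucokinase, differed by -0.04 (SE 0.11) and G6pc, glucose-6-phosphatase, by 0.29 (SE 0.21). Of 8 measured partners of fatty acid synthesis 3 were higher at an unadjusted p under 0.05 and 0 at an adjusted one, with a median of 0.29. The 3 were the elongase Elovl5 (0.44, SE 0.14), the desaturase Fads2 (0.32, SE 0.12) and the mitochondrial citrate carrier Slc25a1 (0.30, SE 0.11). Of 3 measured NADPH-supplying enzymes 1 was higher at an unadjusted p under 0.05, Pgd of the pentose phosphate pathway (0.56, SE 0.18, adjusted p = 0.231), and 0 passed the adjusted threshold. Of 6 genes of cholesterol synthesis and its control 3 were higher at an unadjusted p under 0.05 and 0 at an adjusted one, with a median of 0.44. They were Sqle (0.85, SE 0.22), Hmgcs1 (0.62, SE 0.20) and Fdps (0.54, SE 0.21). In this comparison 5.89% of all tested probe sets were higher at an unadjusted p under 0.05, and 0.312% at an adjusted one.

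Genes that fasting raises in liver moved in both directions. Of 8 measured, Igfbp1, an insulin-suppressed binding protein, fell by 1.05 (SE 0.22, adjusted p = 0.0411). Its signals were 7.21, 7.49, 7.27 and 7.56 in NN-Veh and 6.29, 6.39, 6.18 and 6.45 in UN-Veh, so that all UN-Veh animals were below all NN-Veh animals. Fgf21, a hormone of fasting that carbohydrate also raises, rose by 0.83 (SE 0.18, adjusted p = 0.0432). Pck1, a gluconeogenic enzyme, was lower by -0.44 (SE 0.17, adjusted p = 0.400). In all, 3 of the 8 were higher and 2 lower at an unadjusted p under 0.05, with a median of -0.03. The shares of the tested probe sets were 5.89% higher and 3.42% lower. Feeding state and hour of sampling at 22 weeks were not tested. Of 13 measured clock genes, 1 was higher and 1 lower at an unadjusted p under 0.05 and 0 passed the adjusted threshold in UN-Veh against NN-Veh.

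Markers of other cells were set beside these values. Summed hepatocyte markers were 14.29 to 14.45 in NN-Veh and 14.30 to 14.34 in UN-Veh on the log2 scale, and 0 of 6 were higher and 1 lower at an unadjusted p under 0.05. Summed adipocyte markers were 6.42 to 6.51 and 6.48 to 6.70, and 1 of 5 was higher at an unadjusted p under 0.05. Adipoq was below and Retn above every array's median. Of 6 Kupffer cell markers, 4 were lower at an unadjusted p under 0.05 (median -0.43), against 3.42% of the tested probe sets. Their summed signal was 10.14 to 10.67 in NN-Veh and 9.82 to 10.21 in UN-Veh. Of 6 stellate cell markers 3 were higher at an unadjusted p under 0.05 (median 0.27), against 5.89% of the tested probe sets. At that threshold 2 of 6 endothelial markers (median 0.13) and 2 of 7 common cell genes (median 0.04) were higher as well. The part of non-parenchymal cells in the differences of the lipogenic transcripts was not tested.

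TUDCA was then compared with vehicle within NN and within UN offspring. In NN offspring the transcript with the largest difference was that of Scd1. By limma 1 of 10 members passed an adjusted p under 0.05 in NN-TU against NN-Veh, against 1.35% of the tested probe sets, and 2 had an unadjusted p under 0.05 and were lower, against 11.5%. Scd1 had 11.91, 9.98, 10.82 and 10.57 in NN-TU, against 11.79 to 12.10 in NN-Veh. Of the NN-TU animals 3 were well below all NN-Veh animals, whereas replicate 19 fell within their range. NN-TU replicates 21 and 22 had a smaller SD over probe sets (1.92 and 1.91) than the other arrays of 22 weeks (1.96 to 2.01), and 3 of 7 common cell genes were lower and 0 higher in NN-TU at an unadjusted p under 0.05. The part of these in the value of Scd1 was not tested. The log2 level of Scd1 fell by 1.19, with an SE of 0.24 and an adjusted p of 0.0148, which reads as 0.437 on the linear scale. As NN-Veh lay close to the upper end of the scale, where compression was not tested, this ratio depends on the scale there. Leaving out replicate 19 gave -1.56 and leaving out replicate 20 gave -0.91, and leaving out replicate 22 ended the call (-1.11). Over 17 alternatives the adjusted p of Scd1 ranged from 1.16e-05 to 0.374, the call was kept in 12, and the direction was kept in each.

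Thrsp was the other member that was lower in NN-TU at an unadjusted p under 0.05. Its signals were 9.47, 8.21, 8.60 and 9.22 in NN-TU, against 9.41 to 9.89 in NN-Veh. Of the NN-TU animals 3 were below the NN-Veh range and replicate 19 was inside it. The difference was -0.77 (SE 0.27, adjusted p = 0.163). Fasn, Elovl6 and Acacb had -0.13, -0.09 and -0.02, and Pklr, Me1 and Pnpla3 had 0.29, 0.15 and 0.05, each with a 95% interval that holds 0. Acly (-0.18) and Acaca (-0.17) had intervals that hold 0 as well. Over the 10 members the median was -0.11, against -0.04 over all tested probe sets.

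In UN offspring 0 of 10 members passed an adjusted p under 0.05 in UN-TU against UN-Veh by limma (0 by the methods' ANOVA), against 0.406% of the tested probe sets. An unadjusted p under 0.05 with a lower value was found for 1 member, Thrsp, against 5.64%. Thrsp had 8.54, 9.42, 10.06 and 9.80 in UN-TU and 10.11, 10.72, 10.83 and 10.39 in UN-Veh. Every UN-TU animal was below every UN-Veh animal, as for 3.68% of the tested probe sets, although UN-TU replicate 29 came close to the lowest UN-Veh animal. The difference was -1.06 (SE 0.27, adjusted p = 0.0969), or 0.481 of the linear level. Without single arrays the difference of Thrsp ran from -1.26, which passed the threshold, without replicate 29, to -0.75 without replicate 27, the lowest UN-TU animal, and it was called in 1 of 17 alternatives. Scd1 had 11.79, 11.82, 12.07 and 11.95 in UN-TU, overlapping with UN-Veh, and a difference of -0.19 (95% interval -0.69 to 0.31). Elovl6 was lower by -0.53 (95% interval -1.11 to 0.04), Acacb by -0.48 and Me1 by -0.37, whereas Acly and Pnpla3 were higher by 0.30 and 0.31, and none of these 5 had an unadjusted p under 0.05. UN-TU replicate 27 was the lowest of its group for 9 members, and without it Elovl6 had -0.24, Acacb -0.17 and Me1 -0.08. The median over the members was -0.27, and -0.10 without replicate 27, against -0.01 over all tested probe sets.

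Whether TUDCA acted differently in UN and NN offspring was tested by the interaction term, which uses all 4 groups. By limma 0 of 10 members passed an adjusted p under 0.05 (0 by the methods' ANOVA), and so did 0% of all tested probe sets. An unadjusted p under 0.05 with a value above 0 was found for 1 member, against 7.95%. That member was Scd1, with an interaction of 1.0 (SE 0.34, adjusted p = 0.249), since its TUDCA difference was -1.19 in NN and -0.19 in UN offspring. Without NN-TU replicate 19 the interaction was 1.37 and passed the threshold, and without replicate 20 it was 0.72 and did not. It was called in 1 of 25 alternatives, with an adjusted p of up to 1. Thrsp, which was lower under TUDCA in both kinds of offspring, had an interaction of -0.29 (95% interval -1.10 to 0.51). Pklr had -0.55 (95% interval -1.11 to 0.01), with TUDCA differences of 0.29 in NN and -0.26 in UN.

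**Figure D3:**
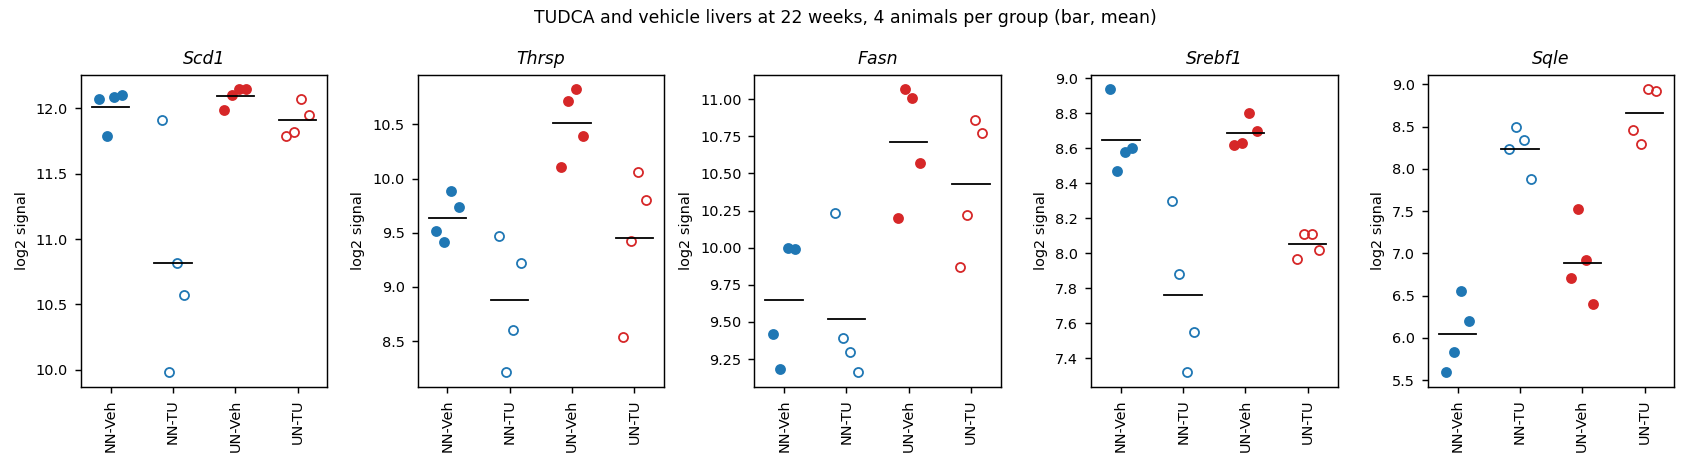
Log2 signals (y axis, own scale in each panel) of Scd1, Thrsp and Fasn and of the regulator gene Srebf1 and the sterol gene Sqle in the 4 animals of each 22-week group (x axis), NN in blue, UN in red, TUDCA groups as open circles, bars at means. Scd1 is low in 3 of 4 NN-TU animals (9.98 to 10.82), Srebf1 is below its vehicle group in each TUDCA animal, and Sqle is above it in each.

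Srebf1 was lower under TUDCA in both kinds of offspring. It had 8.30, 7.88, 7.32 and 7.55 in NN-TU, against 8.47 to 8.94 in NN-Veh, and fell by 0.88 (SE 0.15, adjusted p = 0.0051). In UN-TU it had 7.97, 8.11, 8.11 and 8.02, against 8.62 to 8.80 in UN-Veh, with a difference of -0.64 (SE 0.15, adjusted p = 0.0694). All TUDCA animals were below all vehicle animals of the same offspring. Mlxipl differed by 0.11 in each (SE 0.10). Of the 10 genes of transcriptional control 1 fell and 0 rose at an adjusted p under 0.05 in NN-TU, and 0 passed in UN-TU.

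Genes of cholesterol synthesis, which the related factor SREBP-2 drives, went the other way. Of 6 measured genes, which include Srebf2, the gene of that factor, 5 rose at an adjusted p under 0.05 in NN-TU and 3 did in UN-TU. All 6 were higher at an unadjusted p under 0.05 in each, with medians of 0.88 and 0.66. Of all tested probe sets, 0.292% and 0.138% were higher at an adjusted p under 0.05 (limma), and 4.19% and 4.96% at an unadjusted one. Mvk, mevalonate kinase, rose by 0.92 in NN-TU, with an adjusted p of 0.000793, and in UN-TU its rise was 0.69, with an adjusted p of 0.00931 (SE 0.12 in both). Lss, lanosterol synthase, rose by 0.84 and by 1.02 (adjusted p = 0.026 and 0.016). Sqle signals were 7.88 to 8.50 in NN-TU and 8.30 to 8.95 in UN-TU, against 5.59 to 6.56 and 6.40 to 7.53 in the vehicle groups. Srebf2 itself was higher by 0.35 (SE 0.10, adjusted p = 0.0734) and by 0.36 (SE 0.10, adjusted p = 0.108).

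Of 13 clock genes, 4 were higher and 5 lower at an unadjusted p under 0.05 in UN-TU against UN-Veh, and 0 higher and 1 lower in NN-TU against NN-Veh, with 0 at an adjusted p under 0.05 in either. The shares of the tested probe sets were 4.96% and 5.64% in UN-TU and 4.19% and 11.5% in NN-TU. Among the clock genes Arntl was higher by 1.10 (SE 0.28, adjusted p = 0.0901) and Dbp lower by -1.18 (SE 0.34, adjusted p = 0.153) in UN-TU. Igfbp1 rose by 1.15 in UN-TU (SE 0.22, adjusted p = 0.0251) and had -0.19 (SE 0.22) in NN-TU. Of the 8 genes that fasting raises, 2 were higher and 0 lower at an unadjusted p under 0.05 in UN-TU (median 0.11). In NN-TU 2 were higher and 1 lower (median -0.11). Of 6 Kupffer cell markers 3 were lower at an unadjusted p under 0.05 in NN-TU, 1 of them at an adjusted p under 0.05, and 2 were higher in UN-TU. The part of hour of sampling, feeding state and cell makeup in the values of Scd1 and Thrsp was not tested.

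Under TUDCA the UN animals were again compared with the NN animals. All 10 members were higher in UN-TU than in NN-TU, by a median of 0.59 against 0.06 over all tested probe sets, of which 64.3% were higher. Of 7 common cell genes 5 were higher at an unadjusted p under 0.05 (median 0.25, summed signal 12.42 to 12.71 in NN-TU and 12.75 to 12.85 in UN-TU), as were 4 of 6 stellate and 2 of 6 Kupffer cell markers. NN-TU holds the 2 arrays of smaller SD named above, and the part of these values in the differences was not tested. By limma 1 of 10 members passed an adjusted p under 0.05, against 0.474%, and 7 were higher at an unadjusted p under 0.05, against 13.3%. The 1 member was Scd1, which was higher by 1.09 (SE 0.24, adjusted p = 0.0463), with UN-TU animals at 11.79 to 12.07 and NN-TU animals at 9.98 to 11.91. The groups overlapped by way of NN-TU replicate 19. This call rested on the setting, being kept in 3 of 17 alternatives, with an adjusted p from 0.000129 to 0.811.

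Fasn had 10.23, 9.39, 9.30 and 9.16 in NN-TU and 9.87, 10.22, 10.86 and 10.77 in UN-TU. The groups overlapped through NN-TU replicate 19 alone, and the difference was 0.91 (SE 0.25, adjusted p = 0.0938). Acly had 9.97, 9.32, 8.96 and 8.87 in NN-TU and 9.86, 9.80, 10.36 and 9.94 in UN-TU, again with replicate 19 alone inside the UN-TU range. Its difference was 0.71 (SE 0.21, adjusted p = 0.112). Acaca was higher by 0.59 (SE 0.17, adjusted p = 0.096), Pnpla3 by 0.59, Elovl6 by 0.61 and Thrsp by 0.58. Without NN-TU replicate 19, 4 members rose at an adjusted p under 0.05, Scd1 (1.45), Fasn (1.15), Acly (0.94) and Acaca (0.71). Pnpla3 was the 1 member whose groups did not overlap, as for 5.87% of the tested probe sets, with 4.05 to 4.44 in NN-TU and 4.51 to 5.34 in UN-TU, all near the array medians.

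UN-TU was also set against NN-Veh, the vehicle-treated animals of normally nourished dams. This comparison shares its UN-TU and NN-Veh animals with those above, so that its values stand beside them and are no further replicate. By limma 0 of 10 members passed an adjusted p under 0.05 (0 by the methods' ANOVA), against 0.260%, and 6 were higher at an unadjusted p under 0.05, against 5.16%. The 6 were Fasn (0.78, SE 0.25), Pnpla3 (0.64, SE 0.21), Me1 (0.62, SE 0.26), Pklr (0.60, SE 0.19), Acly (0.53, SE 0.21) and Acaca (0.42, SE 0.17). Thrsp and Scd1 had -0.19 and -0.10, each with an interval that holds 0. The median was 0.52. UN-TU replicate 27 had 9.27 for Pklr, and without it Pklr rose by 0.84 and passed the threshold.

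The same UN and NN contrast was followed at the earlier ages. At 9 weeks, on chow, the median difference over the 10 members was 0.01, with 5 higher and 5 lower. By limma 0 passed an adjusted p under 0.05 (0 by the methods' ANOVA), as did 0% of the tested probe sets, and 0 had an unadjusted p under 0.05, against 3.61%. Fasn had 9.34, 9.51 and 9.98 in NN-9wk and 9.21, 9.94 and 9.81 in UN-9wk. Pklr had 8.20, 9.78 and 9.68 in NN-9wk and 9.06, 9.16 and 9.40 in UN-9wk. Both genes overlapped between the groups, with differences of 0.04 (95% interval -0.43 to 0.52) and -0.01 (95% interval -0.79 to 0.77). Intervals of this width hold differences of the size seen at 22 weeks for Thrsp (-0.57 to 1.29), but not for Fasn, Elovl6 (-0.70 to 0.52) and Acaca (-0.37 to 0.26).

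At 17 weeks, after 8 weeks of HFD, the median difference was -0.29 with all arrays and 0.11 without UN-17wk replicate 14. By limma 0 of 10 members passed an adjusted p under 0.05 (0 by the methods' ANOVA), as did 0% of the tested probe sets, and 0 had an unadjusted p under 0.05 in either direction, against 1.29% of the tested probe sets that were higher and 1.71% that were lower. Fasn had 10.10, 10.18, 10.38 and 10.55 in NN-17wk and 10.46, 10.79, 10.25 and 8.53 in UN-17wk. The last of these is replicate 14, and the other 3 overlap with NN-17wk. The difference was -0.30 (SE 0.44) with it and 0.20 (SE 0.16) without it. Pklr had 10.05, 9.84, 9.77 and 9.98 in NN-17wk and 10.16, 10.35, 9.55 and 7.98 in UN-17wk, with differences of -0.40 and 0.11. Elovl6 had -0.27 and 0.31, and Acly -0.55 and -0.04. Without replicate 14, 0 members had an unadjusted p under 0.05 by limma as well, against 3.4% of the tested probe sets higher and 2.65% lower. In replicate 14 the summed common-cell genes were low too, at 10.50, against 12.42 or more in every animal of 22 weeks.

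**Figure D4:**
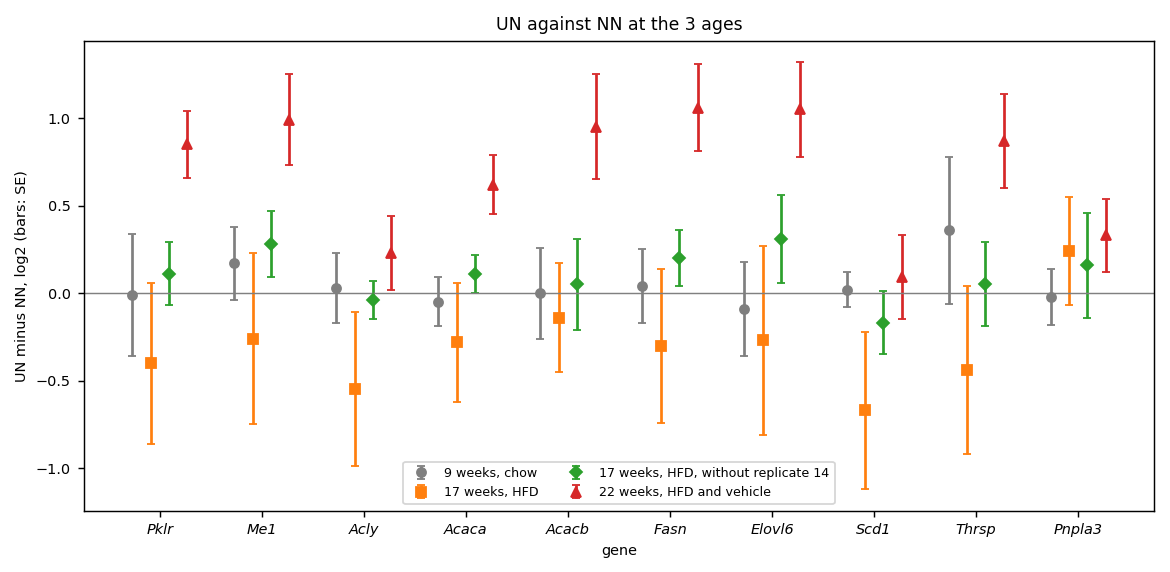
UN minus NN log2 differences (y axis, bars are the SE) of the 10 members (x axis) at 9, 17 and 22 weeks, the 17-week values with and without UN-17wk replicate 14. The triangles of 22 weeks are above 0 for every member and highest for Fasn (1.06), and the 17-week squares lie below 0 for 9 of 10 members with replicate 14.

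The interaction of UN with 13 weeks of diet tests whether the UN difference at 22 weeks was larger than that at 9 weeks. It was above 0 for all 10 members, with a median of 0.75 against 0.02 over all tested probe sets. By limma 0 of 10 passed an adjusted p under 0.05 (0 by the methods' ANOVA), as did 0% of the tested probe sets, and 4 had an unadjusted p under 0.05 and were above 0, against 4.57%. They were Elovl6 (1.14, SE 0.44), Fasn (1.02, SE 0.39), Pklr (0.87, SE 0.39) and Acaca (0.67, SE 0.25). Cohort and handling by gavage changed with age as well.

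Between ages the level of the members was compared within NN and within UN. From 9 to 17 weeks all 10 were higher in NN, by a median of 0.38. By limma 0 passed an adjusted p under 0.05 (0 by the methods' ANOVA), against 0.0158% of the tested probe sets. Thrsp was the 1 member higher at an unadjusted p under 0.05, against 1.12%, with 8.33, 9.68 and 10.10 at 9 weeks and 10.54, 10.94, 10.75 and 10.38 at 17 weeks, and a difference of 1.28 (SE 0.53). For 4 members, Thrsp, Fasn, Elovl6 and Acaca, the groups did not overlap, against 5.17% of the tested probe sets. This fit holds replicate 14 in its estimate of spread, and without it, an alternative chosen after seeing the data, 5 members were higher at an unadjusted p under 0.05, against 4.17% of the tested probe sets, and 0 passed an adjusted one by limma, against 0.197%. In UN the median was 0.18, and 0.53 without replicate 14. By limma 0 members passed an adjusted p under 0.05 in UN (0 by the methods' ANOVA), against 0.122%, and 1 was higher at an unadjusted p under 0.05, Pnpla3, against 2.90%. Without replicate 14 these counts were 0, against 1.03%, and 6, against 7.26%, and Elovl6 (1.29, SE 0.30, adjusted p = 0.0587) and Fasn (0.85, SE 0.21, adjusted p = 0.0726) had the smallest p.

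From 17 to 22 weeks all 10 members were lower in NN-Veh than in NN-17wk, by a median of -0.50. By limma 0 passed an adjusted p under 0.05 (0 by the methods' ANOVA), against 0.0237% of the tested probe sets, and 3 were lower at an unadjusted p under 0.05, against 1.29%. They were Thrsp (-1.01, SE 0.39), Elovl6 (-0.93, SE 0.42) and Acacb (-0.76, SE 0.34). Without UN-17wk replicate 14, which enters this fit through the shared estimate of spread alone, 6 were lower at an unadjusted p under 0.05, against 3.93%, with Pklr (-0.51), Acaca (-0.46) and Fasn (-0.65) in addition, and 0 passed an adjusted one by limma, against 0.0552%. For 7 members every NN-Veh animal was below every NN-17wk animal, against 3.20%, namely Pklr, Acly, Acaca, Acacb, Fasn, Elovl6 and Thrsp. Thrsp, for example, had 10.38 to 10.94 in NN-17wk and 9.41 to 9.89 in NN-Veh. In UN the change over the same ages had a median of 0.46 with replicate 14 and 0.09 without it. By limma 0 members passed an adjusted p under 0.05 in UN (0 by the methods' ANOVA), as did 0% of the tested probe sets, and 1 was higher at an unadjusted p under 0.05, Pklr (0.74, SE 0.33), against 15.5%. Without replicate 14 Pklr had 0.23 (SE 0.21), and 0 members had an unadjusted p under 0.05 by limma, against 7.02% of the tested probe sets higher. NN-Veh and UN-Veh are the same animals as in the comparisons at 22 weeks, and of the groups compared here only these were handled by gavage.

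The order of the 8 groups was alike for several members. UN-Veh had the highest mean for Pklr (10.25), Me1 (10.73), Acaca (7.87), Acacb (6.74), Fasn (10.71), Elovl6 (9.74) and Scd1 (12.10), NN-17wk for Thrsp (10.65) and UN-TU for Acly (9.99) and Pnpla3 (4.90). These means hold UN-17wk replicate 14, and the spans and steps below are given with it only. Without it the highest mean passed to UN-17wk for Elovl6 and Thrsp. UN-Veh then differed from UN-17wk by -0.18 (SE 0.31) for Elovl6 and -0.20 (SE 0.30) for Thrsp. For Thrsp UN-17wk differed from NN-17wk by 0.05 (SE 0.24). NN-TU had the lowest mean for Acaca, Acacb, Fasn, Elovl6, Scd1 and Thrsp. The span between the highest and the lowest group mean was widest for Thrsp, at 1.78, with a median SD within groups of 0.58. It was 1.28 for Scd1, 1.19 for Fasn, 1.15 for Elovl6 and 1.04 for Pklr, with median SDs of 0.14, 0.41, 0.43 and 0.24. Of the 70 steps between neighbouring groups in these orders, 64 were smaller than the member's median SD within groups. The 6 larger steps lay 2 in Scd1 and 1 each in Pklr, Me1, Acacb and Elovl6.

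Within groups the members varied together from animal to animal. Deviations from the group means were correlated over 29 arrays, without replicate 14, and the 45 pairs of members had Pearson r between 0.11 and 0.88 with a median of 0.57. With replicate 14 the median was 0.73. Elovl6 was closest to the other members, with a median r of 0.75, followed by Me1 (0.70) and Thrsp (0.69), and Acly (0.40), Scd1 (0.45) and Pnpla3 (0.46) were the least close. These correlations are a description, since animals of a group share their treatment and each array's normalization, and all members are read from the same arrays.

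**Figure D5:**
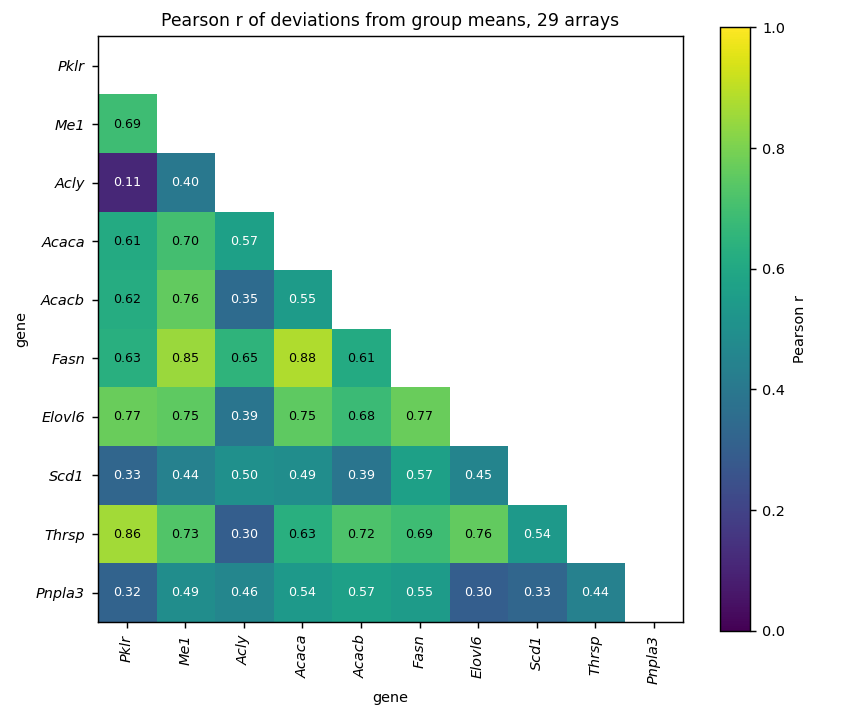
Pearson r (colour and number) of the deviations from group means over 29 arrays, for each pair of the 10 members (both axes). The values run from 0.11 for Pklr with Acly to 0.88 for Fasn with Acaca, with a median of 0.57.

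Outside the list, the genes whose pattern was most like the mean of the 10 members were sought among 18686 named genes over the 30 arrays, after the mean of each cohort was taken off. Gpam, which encodes the mitochondrial acyltransferase that starts triglyceride synthesis, came first (r = 0.96), followed by Pgd (0.94), Pdk1, a pyruvate dehydrogenase kinase (0.91), Gbe1, the glycogen branching enzyme (0.89), and Ttc3 (0.89). Elovl5, Pgm3, Slc16a7, Ermp1 and Slc25a44 followed with 0.87 to 0.88. Without replicate 14 Gpam and Pgd again ranked 1 and 2 (r = 0.94 and 0.91), and Gbe1 ranked 13. Gpam had group means of 9.83 in NN-Veh, 10.58 in UN-Veh, 9.76 in NN-TU and 10.31 in UN-TU (SD 0.29, 0.26, 0.24 and 0.46, 4 animals each). All UN-Veh animals (10.20 to 10.78) were above all NN-Veh animals (9.48 to 10.08) for Gpam. As these genes were chosen for their likeness, their values carry no test.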

How the data were processed

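Liver RNA of 30 mice was measured on Affymetrix MoGene 2.1 ST array strips, 1 array per animal. The values are log2 signals as deposited, which the authors normalized in Affymetrix Expression Console. The method and its version are not given in the sources used here, and normalization ties the arrays of a table together. Of 41345 probe sets, 25341 had a gene name in the platform annotation and 16004 had none here; 1820 of the named ones carried several symbols and 23521 a single one. Of the single-symbol probe sets 23328 were matched to RefSeq by gene identifier, and 0 symbols changed.

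Groups were compared with limma 3.58.1 (lmFit and eBayes, R 4.3.3) within the cohorts each comparison needs, with Benjamini-Hochberg adjustment over the named probe sets and a threshold of 0.05. No value was filtered, floored or offset. All 10 members are reported, whatever their values, in 13 comparisons. The fits were tested on simulated data. The alternatives were other sets of arrays in the fit, the methods' ANOVA, another variance model, array weights, a filter on dim probe sets, all probe sets, other scaling and each array left out. The labels do not say whether animals of a group came from separate litters, so that p-values measure the spread between these animals, and the number of arrays limits the precision. Members and gene lists were chosen with earlier results of these data known. Figures were drawn with matplotlib 3.10.9.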

Additional observations from a re-analysis of the deposited data

Results flagged for a closer look

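Of 60 groups of 4 animals (10 members in 6 groups), 3 held an animal that stood apart from the others by Dixon's criterion, which chance meets in about 1 of 20 groups. Acly was 7.66 in UN-17wk replicate 14, against 9.59 to 9.89 in the other animals of the group. Acaca was 6.29 in the same liver, against 7.77 to 7.92. Ranked within its own array, Acly stood at percentile 98.2 in replicate 14, against 97.5 to 98.1 in the other animals. Acaca stood at percentile 91.3, against 90.2 to 91.8. Scd1 was 11.79 in NN-Veh replicate 16, against 12.07 to 12.10.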

How the results depend on the processing

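Of 2310 member values under the alternatives, 2268 stayed on their side of the threshold, 21 gained and 19 lost a call, and 2 reversed. Both reversals were under array weights at 17 weeks in UN against NN, where Me1 became 0.42 and Elovl6 0.49. Among the 2268, 103 changed sign where neither value had an unadjusted p under 0.05. The median over the members ran from -0.59 to 0.25 in UN against NN at 17 weeks (-0.29 with all settings as reported) and from 0.01 to 0.74 in UN at 22 against 17 weeks (0.46). It also took both signs at 9 weeks (-0.12 to 0.18), in UN at 17 against 9 weeks (-0.04 to 0.59), in NN-TU against NN-Veh (-0.28 to 0.01) and in the interaction of TUDCA with UN (-0.39 to 0.02), and kept its sign in the other comparisons. In UN-Veh against NN-Veh the count of called members went from 0 to 4 with only the groups compared in the fit, to 3 with array weights and to 2 among the brighter probe sets, and from 0 to 2 when single arrays were left out. In UN-TU against NN-TU the count of 1 became 0 with all 30 arrays, with only the groups compared, with the ANOVA, with a variance trend, with array weights, with all probe sets, with repeated quantile normalization and with a common median, and ran from 0 to 4 without single arrays. In NN-TU against NN-Veh it became 0 with all 30 arrays, the groups compared, the ANOVA and the variance trend, and was 0 to 1 without single arrays. Without single arrays it was 0 to 1 in UN-TU against UN-Veh, in UN-TU against NN-Veh and in the interaction of TUDCA with UN. It became 2 in UN at 17 against 9 weeks with array weights (Fasn and Elovl6), and 1 in NN at 22 against 17 weeks (Thrsp) with only the groups compared and with array weights. The cause was not tested. The mean over several probe sets of a gene was not run, since each member has 1. No paired analysis was possible because replicate numbers are not shared between groups.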
